A study of Mus musculus with 20 samples.

Results

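Replication licensing is described here through 10 genes: Mcm2, Mcm3, Mcm4, Mcm5, Mcm6 and Mcm7, Mcm10, Cdc6, Cdt1 and Gmnn. They were chosen by gene symbol, and each was found in the count tables of both bone marrow and kidney, 10 of 55486 genes per table. All 10 passed the filter on low counts and were tested in both tissues. Cdc6 in kidney passed it through its treated libraries. The 20 libraries came from C57BL/6 mice, in 4 groups of 5: bone marrow and kidney of mice given oxaliplatin, and bone marrow and kidney of mice given vehicle. The vehicle was 5% dextrose for 8 weeks, and oxaliplatin, a platinum drug that crosslinks DNA, was injected intraperitoneally at 10 mg/kg in the same vehicle over the same 8 weeks. The mice were 10 weeks old when dosing began. Hind limb marrow (femur and tibia) was collected 6 days after dosing ended, and the methods speak of male and female animals. No allele or transgene is named for any group.

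Before a cell copies its DNA, each replication origin must be licensed. The origin recognition complex and Cdc6 bind the origin in G1, Cdt1 brings the hexamer of Mcm2 to Mcm7, and rings of this helicase are closed around the DNA. Geminin, the product of Gmnn, binds Cdt1 in S and G2 and keeps origins from being licensed again, while Mcm10 acts later, when the loaded helicase is turned on. In adult animals these genes are expressed mainly by dividing cells. Bone marrow holds large dividing pools of red cell, B cell and myeloid precursors, and most cells of the adult kidney are not dividing.

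Total counts per library ranged from 30660153 to 41140527 in marrow and from 24393007 to 30925430 in kidney. A value of 3 counts, taken as the floor, equals 0.0668 to 0.0975 CPM in marrow and 0.0900 to 0.130 CPM in kidney. Levels below are TMM-scaled CPM, that is counts scaled to library size by the TMM factor of each library, and the ± sign gives the SD over 5 mice. The defining markers of each tissue were present. The summed late erythroid markers stood at 26655 to 45165 CPM in vehicle marrow and at 478 to 607 CPM in vehicle kidney, and the summed proximal tubule markers at 15594 to 18108 CPM in vehicle kidney and at 3.61 to 5.51 CPM in vehicle marrow. Transcripts of Y-linked genes were found in each of the 20 libraries, at 77.5 to 173 CPM in sum, so no library read as female. The covariate of Y-linked genes used below therefore does not separate sexes.

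The start regions of these genes are shown because the E2F factors, which switch on genes for entry into S phase, are known to act there. Of the 10 genes, 8 had an entry in the RefSeq promoter table of GRCm38.p6, a window of 300 bases that runs from 250 before the start to 50 after it. Mcm4 and Gmnn had none. Windows were searched on both strands for the E2F octamers TTTCCCGC, TTTCGCGC, TTTGCCGC and TTTGGCGC. The 8 genes had 9 windows, since Mcm7 had a second start. Of these windows 6 of 9 held a match, in Cdc6, Cdt1, Mcm3, Mcm5, Mcm6 and Mcm7, whereas 2.26% of all 32851 windows did. The other window of Mcm7 held no E2F octamer. The CCAAT box was found in 7 of 9 and in 37.4% of all windows. The cell cycle homology element TTTGAA was found in 1 of 9, that of Mcm2, and in 17.9% of all windows. Printed below are the 250 bases before the start of Cdc6 (chr11:98907901-98908150, plus strand), Mcm5 (chr8:75109259-75109508, plus strand), Mcm6 (chr1:128359706-128359955, minus strand) and Mcm7 (chr5:138171884-138172133, minus strand), 5′ to 3′, and 30 bases after the start for Mcm3 (chr1:20820266-20820295, minus strand) and Cdt1 (chr8:122568035-122568064, plus strand). Starts are those of the RefSeq entries. The printed bases of Cdc6 and Mcm7 lie within the gene spans given below, which come from GENCODE and begin further upstream. Capitals mark the E2F octamers. Overlapping octamers are joined in the first match of Mcm5 and of Mcm6.
Cdc6: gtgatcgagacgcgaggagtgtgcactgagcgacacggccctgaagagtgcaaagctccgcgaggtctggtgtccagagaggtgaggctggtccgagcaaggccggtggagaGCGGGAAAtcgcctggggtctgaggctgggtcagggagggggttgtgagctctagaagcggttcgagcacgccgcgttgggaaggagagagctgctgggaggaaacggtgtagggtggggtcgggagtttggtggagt
Mcm5: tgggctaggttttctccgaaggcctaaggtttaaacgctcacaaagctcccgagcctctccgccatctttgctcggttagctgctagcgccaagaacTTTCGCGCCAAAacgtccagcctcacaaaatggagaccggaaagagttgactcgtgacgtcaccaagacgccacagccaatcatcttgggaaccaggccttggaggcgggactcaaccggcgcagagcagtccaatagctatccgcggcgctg
Mcm6: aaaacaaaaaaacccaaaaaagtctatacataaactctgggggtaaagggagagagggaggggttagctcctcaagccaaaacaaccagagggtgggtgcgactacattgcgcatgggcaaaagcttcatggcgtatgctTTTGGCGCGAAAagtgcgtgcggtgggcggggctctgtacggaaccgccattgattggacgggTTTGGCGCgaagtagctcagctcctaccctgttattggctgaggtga
Mcm7: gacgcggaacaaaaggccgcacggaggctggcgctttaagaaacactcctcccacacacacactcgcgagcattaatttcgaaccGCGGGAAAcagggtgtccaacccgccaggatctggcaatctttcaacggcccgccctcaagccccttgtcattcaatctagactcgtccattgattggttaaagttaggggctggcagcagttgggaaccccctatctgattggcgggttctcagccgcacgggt
Mcm3: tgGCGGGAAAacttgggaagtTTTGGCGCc
Cdt1: gggaactaccttTTTGGCGCcatggcgcaa
A match of letters is not a measured binding site. Binding was not measured in this series, and a window without a match says only that these letters are not in it.

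In bone marrow, the licensing genes were lower after oxaliplatin. Of the 10 genes, 8 were called lower and none higher by edgeR's quasi-likelihood test (Benjamini-Hochberg adjusted p under 0.05 over 22363 genes and a change beyond 1.5-fold), while 11.8% of all genes tested were called lower and 23.3% either way. The adjusted p alone was passed by 9 of the 10 and by 33.1% of all genes tested. The median log2 fold change of the 10 was -0.75, compared with -0.038 over all genes tested. Cdc6 fell most. Mcm6 passed the adjusted p and missed the fold threshold, and Mcm3 passed neither. In bulk RNA, fewer dividing cells and less RNA per cell cannot be told apart, and this applies to each result below.

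Cdc6, the loader that recruits the helicase together with the origin recognition complex (chr11:98907801-98923940, plus strand, GRCm38), measured 154, 149.5, 162, 171 and 124 CPM in vehicle mice 1 to 5 and 27.1, 45.3, 85.2, 55.8 and 37.8 CPM in oxaliplatin mice 1 to 5. Every treated mouse was below every vehicle mouse. The log2 fold change was -1.60 (SE 0.25, edgeR adjusted p = 3.86e-04), a level 3.02-fold lower.

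Cdt1, which carries the helicase to the origin (chr8:122568015-122573554, plus strand), measured 146, 145, 168, 165 and 137 CPM with vehicle and 53.5, 88.1, 124, 89.7 and 73.3 CPM with oxaliplatin. The groups did not overlap, although treated mouse 3 came near the lowest vehicle mouse. Its log2 fold change was -0.83 (SE 0.17, edgeR adjusted p = 0.0026). Gmnn, the inhibitor of Cdt1 (chr13:24751845-24761923, minus strand), measured 40.2, 36.7, 35.4, 38.7 and 29.4 CPM with vehicle and 17.7, 20.1, 30.9, 20.7 and 20.3 CPM with oxaliplatin. Treated mouse 3 was above vehicle mouse 5, and the other 4 treated mice were below every vehicle mouse. The log2 fold change was -0.72 (SE 0.15, edgeR adjusted p = 0.00207). The ratio of loader to inhibitor, Cdt1 to Gmnn per kb of the principal transcript, was 2.19 ± 0.242 with vehicle and 1.99 ± 0.293 with oxaliplatin (n = 5 each), and its ranges overlapped.

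Of the 6 helicase subunits, Mcm2, Mcm4, Mcm5 and Mcm7 were called lower. Mcm7 (chr5:138164583-138172422, minus strand) measured 358, 364, 379.6, 422 and 296 CPM with vehicle and 129, 192, 276, 195 and 154 CPM with oxaliplatin. It was the only subunit of the hexamer whose groups did not overlap, and its log2 fold change was -0.94 (SE 0.18, edgeR adjusted p = 0.00111). Exons of Mcm7 overlap those of Cops6 and Ap4m1 on the opposite strand, and its introns and exons hold the microRNA genes Mir25, Mir93 and Mir106b. Whether reads were counted by strand is not given in the sources used here, so reads of these overlapping genes cannot be told apart.

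Mcm2 (chr6:88883474-88898780, minus strand) measured 355, 350.4, 377, 417 and 311 CPM with vehicle and 132, 196, 322, 211 and 149.6 CPM with oxaliplatin. Treated mouse 3 lay among the vehicle mice, and the other 4 lay below all of them. The log2 fold change was -0.84 (SE 0.20, edgeR adjusted p = 0.00616). Mcm4 (chr16:15623897-15637400, minus strand) measured 219, 225, 237, 262 and 190.2 CPM with vehicle and 89.8, 130.0, 232, 152 and 111 CPM with oxaliplatin, a log2 fold change of -0.67 (SE 0.21, edgeR adjusted p = 0.0274). Mcm5 (chr8:75109569-75128439, plus strand) measured 289.9, 297, 329, 360.0 and 259 CPM with vehicle and 128, 190.1, 309, 201 and 157 CPM with oxaliplatin, a log2 fold change of -0.64 (SE 0.20, edgeR adjusted p = 0.0237). For Mcm4 and Mcm5 as well, treated mouse 3 was the only treated mouse within the vehicle range. Both lost their call in 6 and 5 of 10 fits that left out a mouse, and both lost it with the level of Y-linked genes as a covariate (edgeR adjusted p = 0.147 and 0.128).

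Mcm6 (chr1:128331590-128359664, minus strand) measured 339, 334, 359, 408 and 296 CPM with vehicle and 160.2, 231, 355, 229.8 and 192 CPM with oxaliplatin. It passed the adjusted p (log2 fold change -0.57, SE 0.18, edgeR adjusted p = 0.0267) and missed the fold threshold, at 1.49-fold lower, with treated mouse 3 again within the vehicle range. Mcm3 (chr1:20802968-20820312, minus strand) measured 262, 259.7, 278, 299 and 219 CPM with vehicle and 121, 176, 299.8, 203 and 159.5 CPM with oxaliplatin. Its treated mouse 3 was the highest of the 10 mice. Mcm3 did not pass the test, with a log2 fold change of -0.46 (SE 0.20, 95% interval -0.88 to -0.034, edgeR adjusted p = 0.0919).

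Mcm10, which helps to activate the loaded helicase (chr2:4989714-5012791, minus strand), measured 99.1, 89.6, 102, 96.3 and 80.4 CPM with vehicle and 36.8, 49.1, 79.4, 61.4 and 45.6 CPM with oxaliplatin. The groups did not overlap, by a narrow margin between treated mouse 3 and vehicle mouse 5. The log2 fold change was -0.78 (SE 0.17, edgeR adjusted p = 0.00344). In all, 4 of the 10 genes were lower in every treated than in every vehicle mouse, and 13.5% of all genes tested separated in that way.

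**Figure D1:**
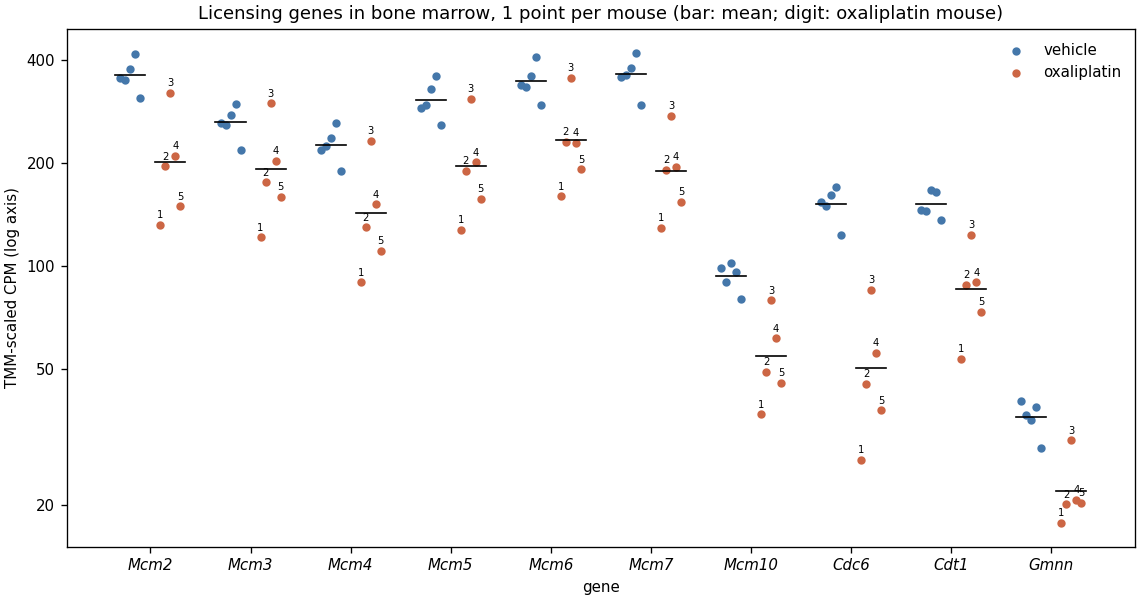
TMM-scaled CPM (log axis) of the 10 licensing genes in bone marrow, 1 point per mouse, with vehicle in blue, oxaliplatin in red and a bar at each group mean of 5 mice. Digits give the number of the treated mouse; mouse 1 is lowest and mouse 3 highest of the treated mice for each of the 10 genes, and Cdc6 shows the widest gap between the groups.

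The treated mice kept nearly the same order in every gene. Mouse 1 was the lowest and mouse 3 the highest treated mouse in 10 of 10 genes, mouse 5 was next to lowest in 9 and mouse 4 next to highest in 9. The vehicle mice also had an order, with mouse 5 lowest in 10 of 10 genes and mouse 4 highest in 7. The spread was wider after treatment. The coefficient of variation of the 10 genes ranged from 8.88% to 12.6% with vehicle and from 23.6% to 44.1% with oxaliplatin.

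As mean log2 CPM over the 10 genes, treated mice 1 to 5 stood at -1.41, -0.87, -0.18, -0.74 and -1.09 relative to the vehicle mean, and vehicle mice between -0.24 and 0.18. Treated mouse 3 therefore lay within the vehicle range and the other 4 below it. Without this mouse, each of the 10 genes was called lower, Mcm3 at a log2 fold change of -0.67 (edgeR adjusted p = 0.00139) and Cdc6 at -1.87. Leaving out any other mouse gave 6 to 9 genes called.

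The summed level of the hexamer subunits, Mcm2 to Mcm7, was 1871 ± 218 CPM with vehicle and 1157 ± 394 CPM with oxaliplatin (n = 5 each). Per kb of the principal transcript, Mcm7 was the most abundant subunit in vehicle marrow (123 ± 15.3 CPM per kb), followed by Mcm6 (119 ± 14.1), Mcm2 (107 ± 11.6), Mcm5 (90.8 ± 11.4), Mcm3 (87.0 ± 9.67) and Mcm4 (63.1 ± 7.32). Neighbours in this order did not differ by more than the sum of their SDs until the step from Mcm3 down to Cdt1 (69.4 ± 6.17 CPM per kb), and the levels of Cdt1, Mcm4 and Cdc6 (59.4 ± 6.94) were again that close. Gmnn (32.0 ± 3.70) and Mcm10 (19.2 ± 1.78) came last. The most abundant subunit was 1.92 to 1.98 times the least abundant in vehicle mice and 1.87 to 2.20 times in treated mice, so the subunits stayed within a narrow range of each other in each library. Mcm4 was the lowest subunit in 10 of 10 marrow libraries.

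Cdc6 did not keep its proportion to the helicase. Per kb, it stood at 0.603 ± 0.0189 of the mean of Mcm2 to Mcm7 with vehicle (range 0.585 to 0.628) and at 0.314 ± 0.0370 with oxaliplatin (range 0.264 to 0.353). These ranges did not overlap, and treated mouse 3 had the highest of the 5 treated ratios.

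Within the groups, the licensing genes varied together in marrow. With group means subtracted, Pearson's r with the mean of Mcm2 to Mcm7 over 10 libraries was 0.956 for Mcm10, 0.987 for Cdc6, 0.968 for Cdt1 and 0.890 for Gmnn, and 0.993 to 0.998 for the subunits, which are part of that mean. The libraries share their scaling and depth. Of the genes compared, 1203 of 14639 reached an r above 0.9, although the median was 0.130. The 8 genes outside the 10 with the highest r were Pcna (0.997), the sliding clamp of the replication fork, Slbp (0.997), which binds histone mRNA in S phase, Eef1d (0.995), Endod1 (0.995), Dut (0.994) and Rrm1 (0.994), which serve nucleotide supply, Uck2 (0.994), a kinase of pyrimidine salvage, and Sf3b4 (0.993). Between the groups, 4 of these 8 genes were called lower, and 11.8% of all genes tested were. Pcna (log2 fold change -0.88), Slbp (-0.91), Endod1 (-1.06) and Rrm1 (-0.76) were called lower by edgeR (adjusted p = 0.00399, 3.72e-04, 8.66e-04 and 0.00892). Eef1d (-0.32), Dut (-0.17) and Sf3b4 (0.19) were not called. Uck2 went the other way: it was higher (0.52), passed the edgeR adjusted p (0.00906) and missed the fold threshold.

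Other genes of DNA replication and the cell cycle were also lower in marrow. Of 82 genes in 8 lists chosen by function, 50 were called lower and none higher by edgeR, with a median log2 fold change of -0.69. For this count and for each list below, the share of all genes tested that was called lower is 11.8%. The origin recognition complex, which marks the origins, was an exception: 1 of 6 subunits was called, Orc1 at -1.12 (edgeR adjusted p = 5.85e-04), and the median was -0.24. Orc1 is the subunit known to be cell cycle regulated. Among relatives of the MCM genes, Mcm9 was called at -0.64, and Mcm8 and Mcmbp were not.

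Of the 12 genes for helicase activation, 7 were called lower, led by Donson at -0.90 and Ticrr at -0.80, both needed to bring Cdc45 and GINS to the helicase. Of 26 replication fork genes, 17 were called lower (median -0.75), with the largest falls in Wdhd1 at -1.17, which links helicase and polymerase alpha, and Clspn at -1.06, an adaptor of the replication checkpoint. All 4 genes of the S-phase cyclins and Cdk2 were lower, Ccne2 at -1.13 and Ccne1 at -0.94 by most. In the E2F family 4 of 8 were lower, with E2f2 at -1.72 and E2f8 at -1.10 (edgeR adjusted p = 3.34e-07 and 1.54e-05). Among genes that turn over Cdt1, Cdc6 and geminin proteins, 3 of 7 were lower, and the largest falls were Fzr1 at -1.44, an activator of the anaphase-promoting complex, and Cul4a at -1.18, a ubiquitin ligase scaffold. For mitosis and proliferation, 13 of 16 were lower (median -0.87), led by Mki67 at -1.53 and Birc5 at -1.18.

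**Figure D2:**
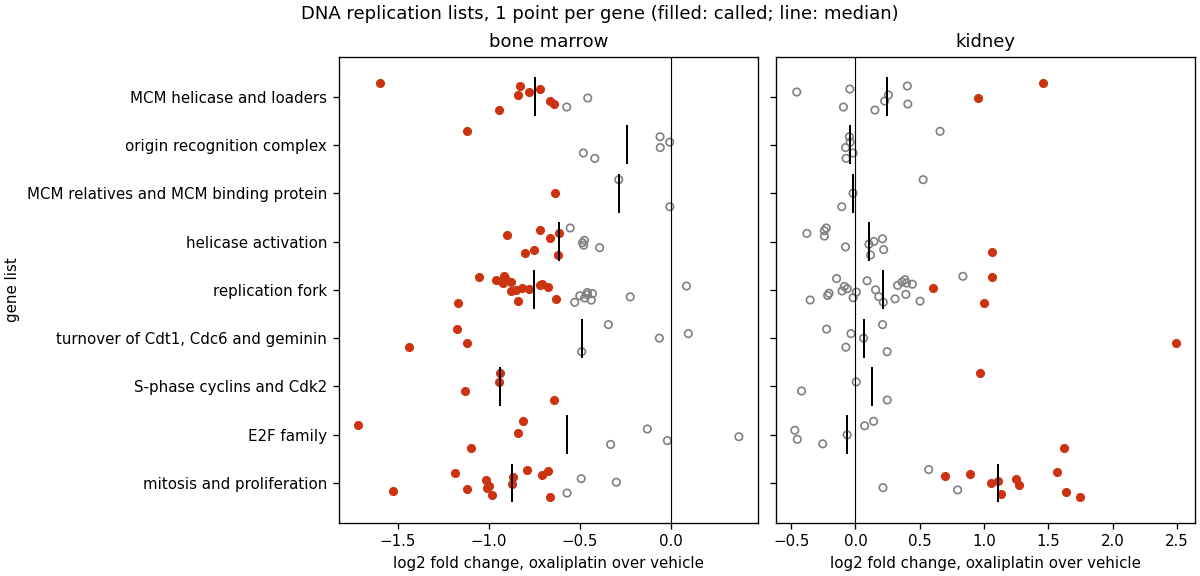
Log2 fold change, oxaliplatin over vehicle, in bone marrow (left) and kidney (right). Shown is each gene of the licensing group and of 8 lists of replication and cell cycle genes. Filled points were called by edgeR (adjusted p under 0.05, beyond 1.5-fold), and lines are medians; in marrow each called gene lies below 0, and in kidney each called gene lies above 0, most of them in mitosis and proliferation (10 of 13 tested).

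Markers of several marrow cell types moved in the same libraries. Of the early erythroid markers 7 of 10 were called lower (median -0.98), with a sum of 2072 to 2786 CPM with vehicle and 919.7 to 1695 CPM with oxaliplatin. Of the late erythroid markers 10 of 10 were lower (median -2.75), with a sum of 26655 to 45165 and 3599.6 to 8383 CPM. Of the pro-B and pre-B markers 7 of 11 were lower (median -2.22), with a sum of 309 to 561 and 80.1 to 165 CPM. No defining marker of these 3 lists was at 0 in the marrow of a whole group.

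The order of the treated mice in the licensing genes was close to that in the early erythroid list, in which mice 1 to 5 stood at -1.51, -1.03, -0.56, -1.05 and -1.40 (mean log2 CPM relative to vehicle). This was not particular to that list. In mitosis and proliferation, too, mouse 1 was the lowest treated mouse (-1.19) and mouse 3 the highest (-0.42). In the pro-B and pre-B list treated mice 1 to 5 stood at -4.46, -4.36, -1.12, -1.32 and -3.87, with mice 3 and 4 highest. Late erythroid markers were low in each treated mouse, from -2.99 to -2.32, mouse 3 included. Of the neutrophil precursor markers 0 of 6 were called (sum 2998 to 3522 CPM with vehicle and 2622 to 4277 CPM with oxaliplatin), and of the mature neutrophil markers 0 of 6, with sums of 8206 to 10012 and 3853 to 13369 CPM. In marrow 11.6% of all genes tested were called higher. Adipocyte markers were called higher in 6 of 6 (76.2 to 143 and 492 to 2460.5 CPM) and skeletal muscle markers in 5 of 6 (9.75 to 103 and 43.6 to 779 CPM). Mouse 3, the highest treated mouse in the licensing genes, also stood apart in these lists, with the lowest mature neutrophil sum (3853 CPM), the highest neutrophil precursor sum (4277 CPM) and the highest skeletal muscle sum (779 CPM) of the 10 mice. What part these cell types have in the change of the licensing genes was not tested.

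**Figure D3:**
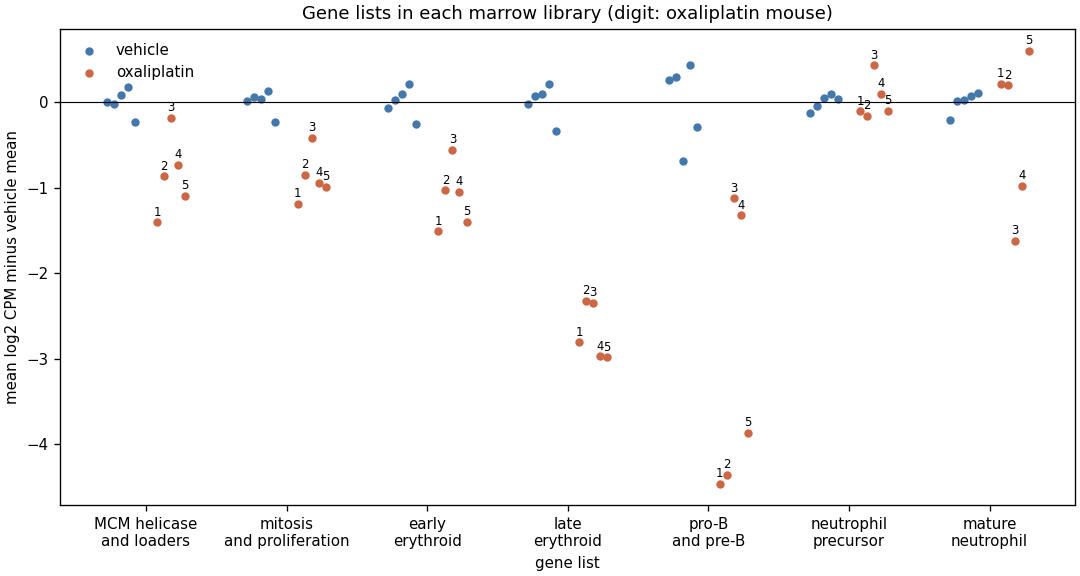
Mean log2 CPM of the licensing genes and of 6 other gene lists in each marrow library, minus the mean of the 5 vehicle mice. Blue points are vehicle and red points oxaliplatin, with digits for the treated mouse: mouse 3, at -0.18 for the licensing genes, lies in the vehicle range there and at -2.34 for the late erythroid list.

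In kidney the licensing genes were sparse, and 2 of 10 were called, both higher after oxaliplatin, where 7.68% of all 19293 genes tested were called higher and 3.81% lower. These were Mcm3 and Cdc6. Of the other 8, Mcm2, Mcm5 and Cdt1 passed the adjusted p on the higher side and Mcm10 on the lower side without reaching 1.5-fold, and Mcm4, Mcm6, Mcm7 and Gmnn did not pass. Leaving out 1 mouse took the edgeR adjusted p of each of these first 4 past 0.05, to at most 0.127 for Mcm2, 0.103 for Mcm5, 0.0743 for Cdt1 and 0.0712 for Mcm10. The adjusted p alone was passed by 14.4% of all genes tested on the higher and 15.0% on the lower side. The median log2 fold change of the 10 was 0.24, compared with 0.025 over all genes tested.

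Mcm3 measured 3.77, 3.58, 4.67, 3.02 and 3.52 CPM in vehicle mice 1 to 5 and 6.57, 7.14, 6.26, 7.54 and 8.34 CPM in oxaliplatin mice 1 to 5. The groups did not overlap, and the log2 fold change was 0.95 (SE 0.14, edgeR adjusted p = 1.16e-04), a level 1.93-fold higher. Cdc6 measured 0.336, 0.572, 0.130, 0.362 and 0.202 CPM with vehicle and 0.610, 0.707, 0.683, 1.30 and 1.17 CPM with oxaliplatin. These values rest on 3 to 15 counts per vehicle library and 17 to 39 counts per treated library, and vehicle mouse 3 was at the floor. Cdc6 passed the filter on low counts through its treated libraries, so its call is not independent of its entry to the test. The groups did not overlap, with a log2 fold change of 1.46 (SE 0.39, 95% interval 0.63 to 2.28, edgeR adjusted p = 0.00969). Among all genes tested, 9.69% were higher in every treated than in every vehicle kidney.

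Mcm2 measured 19.1, 18.1, 17.1, 17.95 and 19.3 CPM with vehicle and 19.1, 26.1, 21.5, 19.7 and 22.9 CPM with oxaliplatin (log2 fold change 0.26, SE 0.091, edgeR adjusted p = 0.0414). Mcm5 measured 6.53, 5.94, 6.61, 5.19 and 6.03 CPM with vehicle and 5.42, 9.16, 7.59, 9.23 and 8.79 CPM with oxaliplatin (log2 fold change 0.41, SE 0.15, edgeR adjusted p = 0.0432). For each of these subunits 4 treated mice were above every vehicle mouse, and treated mouse 1 lay within the vehicle range. Cdt1 measured 8.32, 7.89, 6.998, 5.92 and 5.95 CPM with vehicle and 9.58, 11.1, 9.10, 8.00 and 8.67 CPM with oxaliplatin (log2 fold change 0.40, SE 0.13, edgeR adjusted p = 0.0261), with treated mouse 4 within the vehicle range. Mcm10 went the other way, at 6.98, 6.59, 6.13, 4.55 and 6.64 CPM with vehicle and 4.27, 5.32, 4.06, 4.95 and 3.93 CPM with oxaliplatin (log2 fold change -0.46, SE 0.15, edgeR adjusted p = 0.026). The groups of Mcm10 overlapped through vehicle mouse 4, the lowest of its group.

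The other 4 genes had overlapping groups. Mcm4 ranged from 7.37 to 9.94 CPM with vehicle and from 9.09 to 11.1 CPM with oxaliplatin (log2 fold change 0.23, 95% interval -0.0034 to 0.46, edgeR adjusted p = 0.129). Mcm7 ranged from 16.3 to 20.5 and from 18.2 to 21.5 CPM (0.15, interval -0.032 to 0.34, edgeR adjusted p = 0.205). Mcm6 ranged from 18.7 to 25.5 and from 17.0 to 21.6 CPM (-0.093, interval -0.30 to 0.12, edgeR adjusted p = 0.51), and Gmnn from 4.31 to 5.57 and from 4.14 to 5.24 CPM (-0.043, interval -0.33 to 0.24, edgeR adjusted p = 0.84). None of these 4 intervals reaches the 1.5-fold threshold in either direction.

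**Figure D4:**
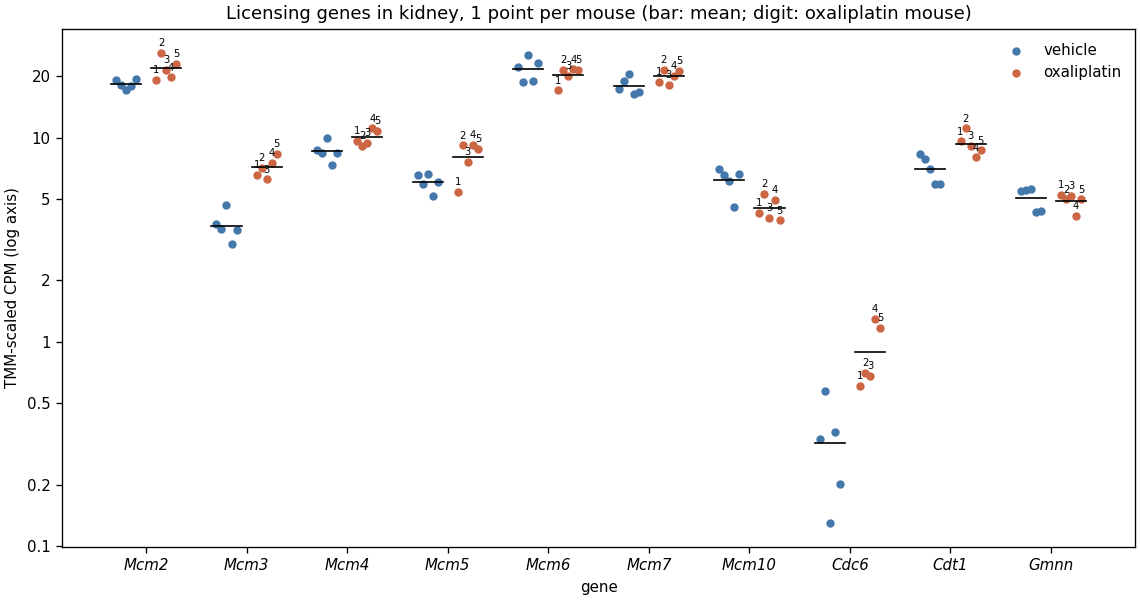
TMM-scaled CPM (log axis) of the 10 licensing genes in kidney, 1 point per mouse, with vehicle in blue, oxaliplatin in red, a bar at each group mean of 5 mice and digits for the treated mice. Mcm3 and Cdc6 are the genes whose groups do not overlap, and Cdc6 lies below 1.5 CPM in every library.

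The make-up of the hexamer transcripts differed between the kidney groups. Per kb, Mcm6 was the most abundant subunit in vehicle kidney (7.46 ± 0.994 CPM per kb) and Mcm3 the least (1.22 ± 0.198), with Mcm7 (6.06 ± 0.592), Mcm2 (5.43 ± 0.268), Mcm4 (2.39 ± 0.256) and Mcm5 (1.79 ± 0.168) between them. Mcm6, Mcm7 and Mcm2 followed each other within the sum of their SDs, and so did Mcm10 (1.27 ± 0.197) and Mcm3. The most abundant subunit was 5.44 to 6.88 times the least abundant in vehicle kidneys and 2.84 to 3.95 times in treated kidneys, and these ranges did not overlap. Mcm3 was the least abundant subunit in each vehicle kidney and the only subunit called higher. The narrower ratio therefore restates the rise of Mcm3 and is not a separate result. The summed level of the 6 subunits moved little, from 76.3 ± 5.68 to 87.4 ± 7.57 CPM. The ratio of Cdt1 to Gmnn per kb was 0.714 ± 0.0506 with vehicle and 0.977 ± 0.103 with oxaliplatin (ranges 0.647 to 0.786 and 0.896 to 1.15).

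Within kidney groups the licensing genes varied together less than in marrow. Over 10 libraries with group means subtracted, r with the mean of Mcm2 to Mcm7 was 0.372 for Mcm2 and 0.717 to 0.896 for the other subunits, 0.490 for Mcm10, 0.162 for Cdt1, 0.144 for Gmnn and -0.047 for Cdc6, whose counts are few. The highest values outside the group belonged to 1110002L01Rik (0.937), Grm7 (0.935), BC021767 (0.931), Bgn (0.925), Taok3 (0.922), Brox (0.918), Col1a1 (0.914) and Gm14399 (0.897), and 7 of 13626 genes had an r above 0.9. None of these 8 is in the lists of replication and cell cycle genes. Grm7 (log2 fold change 0.89) and Col1a1 (1.83), a chain of type I collagen, were called higher by edgeR (adjusted p = 0.00688 and 2.16e-08).

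The lists of replication and cell cycle genes were higher in kidney where they were called. Of 82 genes 76 could be tested, and 17 were called higher and none lower (median 0.17). Of all genes tested, 7.68% were called higher. Most of the 17 were in mitosis and proliferation, with 10 of 13 tested and a median of 1.11. This list was led by Top2a at 1.74 and Mki67 at 1.63 (edgeR adjusted p = 9.21e-06 and 5.19e-05). Its summed level was 12.6 to 19.0 CPM with vehicle and 29.9 to 47.2 CPM with oxaliplatin, still far below the 2126 CPM of the lowest treated marrow. Dtl, which directs Cdt1 protein to degradation, had the largest rise of the turnover list at 2.49 (edgeR adjusted p = 2.38e-05), from 0.221 to 1.27 CPM. Like Cdc6, it passed the filter on low counts through its treated libraries. At the fork 3 of 25 tested were called, a share close to that of all genes, led by Clspn at 1.06 and Wdhd1 at 0.999. The other lists gave 1 call each at most: Recql4 at 1.06 in helicase activation, Ccna2 at 0.97 and E2f7 at 1.62. None of 6 origin recognition genes was called.

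Other cell types also moved in kidney, where 7.68% of all genes tested were called higher and 3.81% lower. Monocyte and macrophage markers were called lower in 4 of 7 (sum 102 to 129.7 CPM with vehicle and 59.2 to 71.5 CPM with oxaliplatin), podocyte markers higher in 4 of 5 (296 to 301 and 435 to 529 CPM) and endothelial markers higher in 2 of 5 (221 to 238 and 266 to 377 CPM). Adipocyte markers were called higher in 4 of 5 tested (median 2.00), with a sum of 20.1 to 41.7 CPM with vehicle and 60.4 to 176 CPM with oxaliplatin. Of the tubular injury markers 2 of 5 tested were called higher, and their summed level was 280.3 to 327 CPM with vehicle and 509.8 to 647 CPM with oxaliplatin. Neutrophil precursor markers summed to at most 0.395 CPM, with Ctsg and Ms4a3 at 0 in every kidney library, and Rag1 of the pro-B and pre-B list was at 0 as well. Early erythroid markers were called in 0 of 6 tested and late erythroid markers in 1 of 8, higher. Late erythroid sums ranged from 478 to 607 CPM with vehicle and stood at 294, 811, 429, 758 and 272 CPM in treated mice 1 to 5. Mice 2 and 4, the highest there, also had the highest sums of mitosis and proliferation, 47.2 and 41.8 CPM. Which cells of the kidney hold the licensing transcripts was not tested.

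The effect of oxaliplatin on the licensing genes differed between the tissues. The difference of the log2 fold changes, marrow minus kidney, was called for 8 of 10 genes by the edgeR interaction of tissue and treatment (adjusted p under 0.05 over 24321 genes), and for each of the 8 the change in marrow lay below that in kidney. Of all genes tested, 13.1% were called in that direction and 30.1% either way. The difference was -2.98 for Cdc6 (SE 0.51, adjusted p = 1.51e-04) and -1.34 for Mcm3 (SE 0.26, adjusted p = 5.29e-04), the 2 genes called in kidney. It was -1.16 for Cdt1, -1.02 for Mcm2, -1.02 for Mcm7, -0.97 for Mcm5 and -0.82 for Mcm4.

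Gmnn, at -0.61 (SE 0.21, edgeR adjusted p = 0.0314), lost its call in 9 of 20 fits that left out a library. Mcm6 (-0.41, 95% interval -0.88 to 0.070, edgeR adjusted p = 0.194) and Mcm10 (-0.25, 95% interval -0.76 to 0.26, edgeR adjusted p = 0.48) were not called. The marrow and kidney libraries were extracted by different methods and come from separate tables, so an effect of treatment is compared here within each tissue first.

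**Figure D5:**
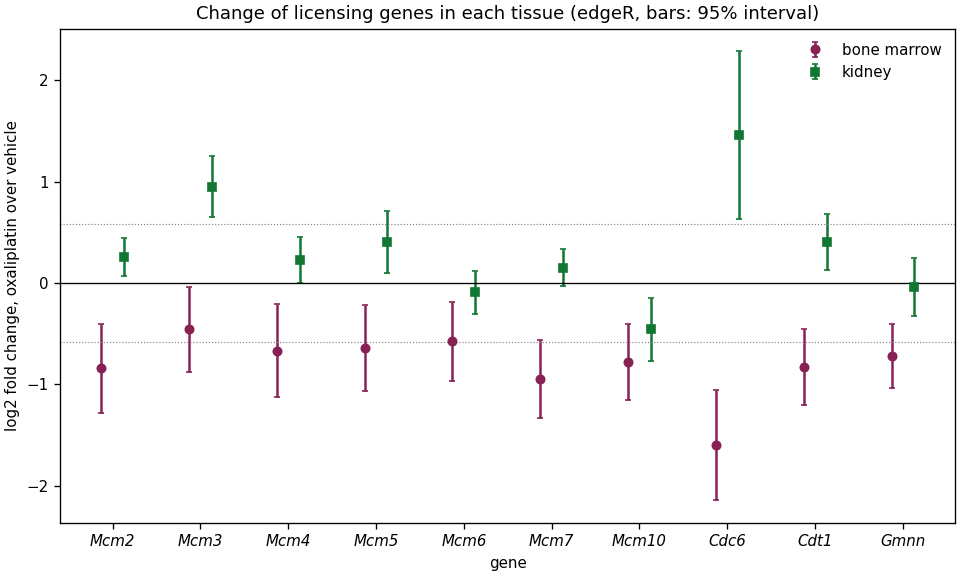
Log2 fold change, oxaliplatin over vehicle, of the 10 licensing genes in bone marrow (circles) and kidney (squares), with dotted lines at 1.5-fold. Bars give the 95% interval derived from the edgeR test (n = 5 mice per group). In marrow each of the 10 estimates is below 0; in kidney Mcm3 and Cdc6 lie above the upper line, and Mcm10 lies below 0 with its whole interval.

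Levels in vehicle animals differed widely between the tissues, and these differences are a description, since tissue and extraction cannot be told apart. With TMM factors set over the 20 libraries together, vehicle marrow stood above vehicle kidney by 5.29-fold for Gmnn, 11.2-fold for Mcm10, 11.9-fold for Mcm6, 14.7-fold for Mcm2, 52.6-fold for Mcm3 and 352-fold for Cdc6. With factors set within each tissue, the same ratios ran from 7.14-fold for Gmnn to 474-fold for Cdc6. After oxaliplatin they ran from 3.47-fold for Gmnn to 44.1-fold for Cdc6 with joint factors. Mcm3 and Cdc6, the genes called higher in treated kidney, had the largest ratios of marrow to kidney in vehicle mice. The level in vehicle kidney is the base of both this ratio and the kidney change, so a low value there raises both.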

How the data were processed

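Bulk RNA-seq was measured in 20 libraries, 5 mice for each tissue and treatment. The authors deposited raw read counts per gene, 1 table per tissue, without normalization. Per the study's methods, reads were aligned with STAR to Ensembl release 101, and unique, unambiguous reads were counted in Partek Flow. The submitters' processing notes also name bcl2fastq, Subread, featureCounts and Salmon. Library chemistry is given in 2 ways: a SMARTer kit in the methods, and ribosomal RNA removal with random hexamers in the sample records. Kidney RNA was extracted on a column and marrow RNA with TRIzol and a column. Counting by strand is not given in the sources used here, so antisense reads may be included.

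Each table had 55774 lines. Without 287 repeated lines and 1 line that lacked a value, 55486 genes remained. Samples were grouped by their titles. Each tissue was tested with edgeR 4.0.16 (R 4.3.3, limma 3.58.1): filterByExpr at a minimum count of 10, TMM, robust quasi-likelihood fit, treatment as the only term, two-sided, Benjamini-Hochberg adjustment over all genes tested. Called means an adjusted p under 0.05 and a change beyond 1.5-fold; the interaction, fitted on 20 libraries, was called at an adjusted p under 0.05 alone. The SE is the absolute log2 fold change divided by the square root of the F statistic of the test. The 95% intervals were derived from this SE and a t quantile. Levels are CPM scaled by TMM, and log2 CPM used a prior count of 2. Levels per kb used the longest principal transcript of GENCODE mouse release 21 (GRCm38). Floors of 3 counts cover counting error only. Libraries of a group differed by more than counting noise, so each counted as 1 mouse. The steps were tested on simulated data with a fixed spread and with changes only in genes of ample counts. That check does not cover genes of few counts, such as kidney Cdc6, or the wider spread of treated marrow.

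The 10 genes and all lists were chosen with earlier results of these data known. Named are the 10 genes and some of each list of replication and cell cycle genes. Of such a list these are at most 2 called genes with the largest rise and 2 with the largest fall. Also named are the 8 tested genes most like the mean of Mcm2 to Mcm7 at a mean log2 CPM of 1 or more. Of the markers, those at 0 are named, and Cd4 as the largest change of its list. Alternatives were DESeq2 1.42.0, its size factors, library size alone, other filters on low counts, hemoglobin genes left out, other fold thresholds, a covariate of Y-linked genes, a replicate block and each library left out. Plots used Python 3.11.15 with matplotlib 3.10.9.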

Additional observations from a re-analysis of the deposited data

Results flagged for a closer look

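The response of 8 licensing genes to oxaliplatin differed between the tissues by edgeR's test of the interaction. The differences, marrow minus kidney on the log2 scale, were -2.98 for Cdc6, -1.34 for Mcm3, -1.16 for Cdt1, -1.02 for Mcm2, -1.02 for Mcm7, -0.97 for Mcm5, -0.82 for Mcm4 and -0.61 for Gmnn.

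In 40 sets of 5 mice (10 genes in 4 groups), 2 held a mouse far from the others by Dixon's criterion, and chance gives about 1 in 20. Both were of Gmnn: treated marrow mouse 3 at 30.9 CPM, with the other 4 treated mice between 17.7 and 20.7 CPM, and treated kidney mouse 4 at 4.14 CPM, with the others between 4.98 and 5.24 CPM.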

How the results depend on the processing

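Library size alone in place of TMM shifted the median log2 fold change over all genes to 0.11 in marrow and 0.16 in kidney, raised the share of higher calls from 49.6% to 63.4% and from 66.8% to 82.7%, left 5 licensing genes called lower in marrow, and turned kidney Mcm6 (0.044) and Gmnn (0.087) above 0. Kidney Gmnn was also above 0 without treated mouse 4 (0.021), and ran from -0.094 to 0.021 over the mice left out in turn. A change beyond 2-fold left 1 of the 10 genes called in marrow (Cdc6) and 1 in kidney, with 3231 and 941 genes called over all. Without a fold threshold 5679 genes were called in kidney, 5 of the 10 genes higher. Kidney Cdc6 did not pass a filter of at least 10 counts in every library, which left 1 of the 10 called. Mcm4 and Mcm5 in marrow were not called with library size alone, with every gene of at least 1 count or with the Y-linked covariate, and Mcm4 and Gmnn lost their interaction with every gene of at least 1 count. Leaving out each library gave 6 to 10 licensing genes called lower in marrow (4725 to 5727 genes in all), 2 in kidney (1761 to 2424) and 7 to 9 in the interaction (6495 to 8028). Without treated marrow mouse 3, Mcm6 also passed in the interaction. The causes of these changes were not tested beyond what each setting itself removes. Mice with the same number did not vary together across treatments (r from -0.12 to 0.23 in marrow and from -0.15 to 0.075 in kidney). Marrow and kidney libraries of the same number and treatment had an r from -0.094 to 0.21. The labels do not say whether such libraries came from the same mouse, and the main interaction fit treated all libraries as independent. With the replicate block, 4968 genes and 9 licensing genes were called in marrow, 2017 and 2 in kidney, and 6710 and 8 in the interaction. Depth limits kidney Cdc6 most, at 3 to 15 counts per vehicle library.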

Other observations

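Other cell type markers in marrow moved in both directions. Of all genes tested there, 11.6% were called higher and 11.8% lower. Stem and progenitor markers were called higher in 3 of 8 and lower in none, with a sum of 215 to 274 CPM with vehicle and 228 to 285 CPM with oxaliplatin. Megakaryocyte markers were called higher in 5 of 5 (1019 to 1579 and 1889 to 2899 CPM). Monocyte and macrophage markers were called higher in 3 of 7 (989 to 1226 and 1039 to 1846 CPM), and 2 of 7 had a log2 fold change below 0, not called. T and NK markers were called lower in 2 of 7 (85.3 to 117 and 37.2 to 59.0 CPM). Most of this sum was Cd4, at a mean of 78.6 CPM with vehicle and 28.5 CPM with oxaliplatin. The log2 fold change was above 0 for 3 of the 7 markers, none of them called.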
